A study of Rattus norvegicus with 12 samples.

Results

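The comparison set rats given lipopolysaccharide (LPS) alone against rats held in hypobaric hypoxia (HPO) alone, in cells recovered by bronchoalveolar lavage (BALF cells). It was defined by the sample labels and used 6 of the 12 arrays of the series, 3 of the LPS group and 3 of the HPO group. All rats were male Sprague-Dawley animals of 8 weeks with no food or water during the experiment. LPS rats received 0.5 mg/kg LPS through the tail vein and stayed in normal air, and the interval between injection and lavage is not given for the arrays in the sources used here. HPO rats spent 6 h in a decompression chamber at 405.35 mmHg, the pressure of about 5000 m, equivalent to 11.2% oxygen, and their lavage was done under the same air. The methods describe a saline injection for the control group (CTL) and none for HPO, so LPS itself and the injection cannot be told apart between LPS and HPO. The remaining arrays belong to CTL and to a group given both stimuli (COMB). In the model these 6 other arrays served to estimate the spread. They also counted in the level filter and in the choice of the probe set that stands for a gene. CTL values stand beside the results for orientation. Each array held RNA pooled from 3 rats in LPS, HPO and CTL, so a p-value measures the spread between pools and not between rats. The labels list 2 rats for COMB 1, 2 for COMB 2 and 3 for COMB 3. By the rat numbers in the labels, LPS 1 holds 2, 3, 6, LPS 2 holds 5, 7, 11 and LPS 3 holds 8, 9, 10. HPO 1 holds 7, 8, 9, HPO 2 holds 2, 4, 11 and HPO 3 holds 3, 5, 12, while CTL 1 holds 1, 3, 4, CTL 2 holds 5, 6, 7 and CTL 3 holds 8, 9, 10. The labels do not tie equal numbers in different groups to each other.

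LPS is a component of the outer membrane of Gram-negative bacteria. The soluble protein Lbp and the surface protein Cd14 hand it to the receptor Tlr4 on macrophages, which activates NF-kB and, through a separate adaptor, type I interferon. NF-kB drives cytokines, chemokines and acute phase proteins, and interferon drives a large set of antiviral genes. Low oxygen acts mainly by stabilising HIF proteins, transcription factors that raise genes of glycolysis, mitochondrial turnover and blood supply and whose control is largely at the protein level. Heat shock proteins and the chaperones of the endoplasmic reticulum (ER) rise when proteins fold poorly, and a few RNA-binding proteins are known to rise in the cold. Alveolar macrophages are the main cells of a normal lavage.

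Values are probe set intensities as deposited, on a linear scale in arbitrary units. Differences are LPS minus HPO on the log2(intensity + 1) scale, so that 1 is a doubling, and they understate the change of genes near the low end. Of 31099 probe sets, 25692 exceeded the 20th percentile on 3 or more of the 12 arrays, taking the percentile per array, and were tested. A limma fit of the 4 group means gave adjusted p-values (Benjamini-Hochberg over all probe sets tested), and a gene or probe set is called at an adjusted p under 0.05. Each gene is represented by its probe set of the highest mean, which gave 12853 genes. The array medians lay between 32.72 and 35.61. With 3 arrays a group, precision is limited. CTL 2 stood apart from the other CTL pools in several inflammatory genes, for example with Il1b at 1553.4 against 137.7 and 167.2, and its values are given where a result is set beside CTL. Among the HPO pools, HPO 3 lay farthest from the others, at a Euclidean distance of 54.3 and 59.6 over the probe sets tested on the log2 scale, against 36.1 between HPO 1 and HPO 2 and 37.9 to 42.4 between LPS pools. Distances between LPS and HPO pools ran from 53.0 to 77.4. The COMB pools, which also enter the estimate of the spread, lay 47.8 to 71.1 apart.

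LPS and HPO differed at 1848 of 25692 probe sets, which is 7.19%. Of these, 665 (2.59%) were higher in LPS and 1183 (4.6%) were higher in HPO. At the level of genes, 396 (3.08%) were higher in LPS and 668 (5.2%) were higher in HPO, 8.28% in all. The larger differences lay on the LPS side, where 89 called genes were at least 2-fold higher (0.692%), against 61 in HPO (0.475%), and 345 probe sets (1.34%) were at least 2-fold apart whatever their p. The median difference over all genes was -0.02 and the median standard error (SE) was 0.13. The arrays of both groups did not overlap in 31.1% of genes, with LPS above in 11.1% and HPO above in 20.1%. Set against CTL, which both comparisons share, LPS had 525 called probe sets (2.04%) and HPO had 9 (0.035%). The count of called probe sets fell to 608 without LPS 1, 1084 without LPS 2, 825 without LPS 3, 1060 without HPO 2 and 1128 without HPO 3. The predominance of calls in HPO depended on the scaling: with each array centred on its median, which raised the median LPS minus HPO difference by 0.06, 882 probe sets were higher in LPS and 818 in HPO, so that LPS held 51.9% of the calls instead of 36%. LPS also held 50.2% of the calls without LPS 3 and 55.1% without HPO 3.

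**Figure D1:**
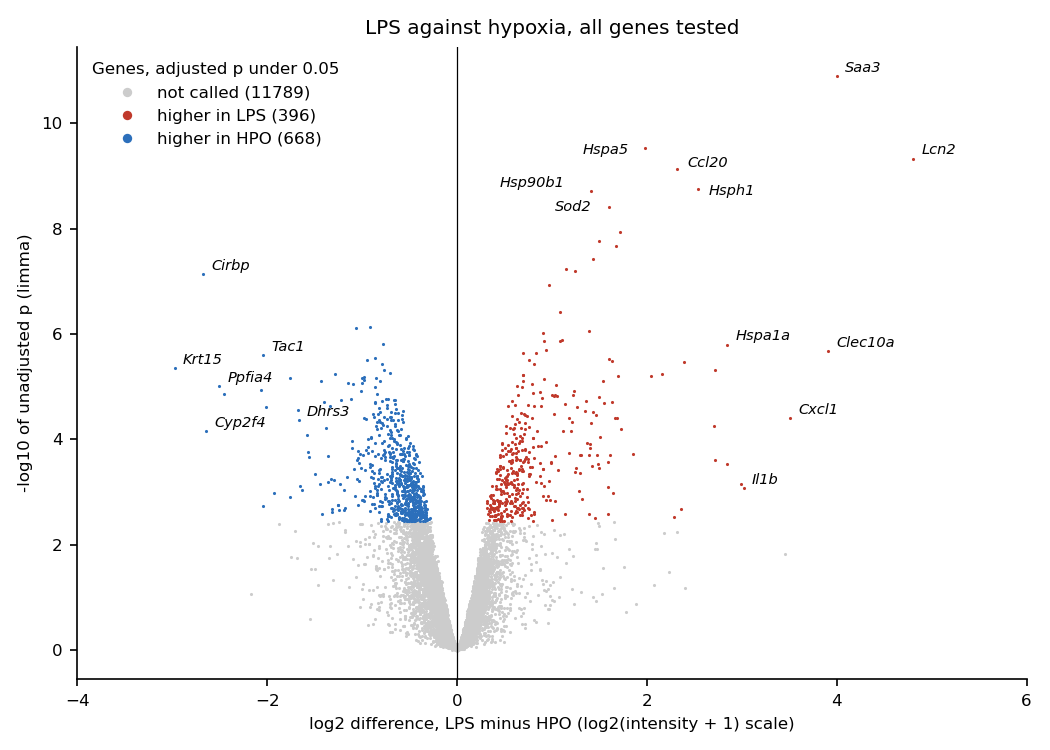
Each point is 1 of the genes tested, with the log2 difference LPS minus HPO on the horizontal axis and -log10 of the unadjusted limma p on the vertical axis. Red points are the 396 genes called higher in LPS, blue points the 668 called higher in HPO and grey points the 11789 not called. Saa3, Lcn2, Hspa5, Ccl20 and Hsph1 lie highest on the LPS side, and Cirbp lies highest on the HPO side.

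The 15 leading LPS genes included the acute phase proteins Lcn2, Saa3 and Cp, the chemokines Cxcl1 and Ccl20, both interleukin 1 genes, the heat shock proteins Hspa1a and Hsph1 and the interferon-induced genes Herc6, Oasl and Ifgga2l1, beside the myeloid genes Clec10a, Vcan and S100a8. Lcn2, which withholds iron from bacteria by binding their siderophores, was at 1091.2, 945.0 and 888.4 in the LPS pools and at 20.5, 40.5 and 46.0 in the HPO pools. The log2 difference was 4.81 (SE 0.27, adjusted p = 4.03e-06), and the rule that chose the leading genes required pools that do not overlap. The HPO pools lay near CTL, where Lcn2 was at 18.5, 31.9 and 23.0. Saa3, an acute phase apolipoprotein made by macrophages, was at 1759.7, 1422.0 and 1367.8 in LPS and 87.1, 86.3 and 107.7 in HPO (4.00, SE 0.16, adjusted p = 3.24e-07). The 3 LPS values of Saa3 differed little among themselves, and its difference had the lowest p of all genes. Cp, the copper carrier ceruloplasmin, was at 331.2, 206.0 and 220.3 in LPS and 36.6, 30.4 and 44.7 in HPO (2.71, adjusted p = 0.00169), and its 3 probe sets gave differences from 1.14 to 2.71. Hp, haptoglobin, which binds free haemoglobin, was at 346.4, 248.7 and 298.1 in LPS and 121.7, 99.1 and 140.2 in HPO (1.30, adjusted p = 0.0101), with both groups above the CTL values of 41.7, 63.6 and 35.2. These 4 genes were the called members of the acute phase list, 20% of those tested against 3.08% over all genes. In that list, 20 of 22 genes on the array passed the level filter. None was called higher in HPO by limma (0 also at an unadjusted p under 0.05), and the median difference was 0.29. Without LPS 1, the adjusted p of Hp was 0.0519.

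**Figure D2:**
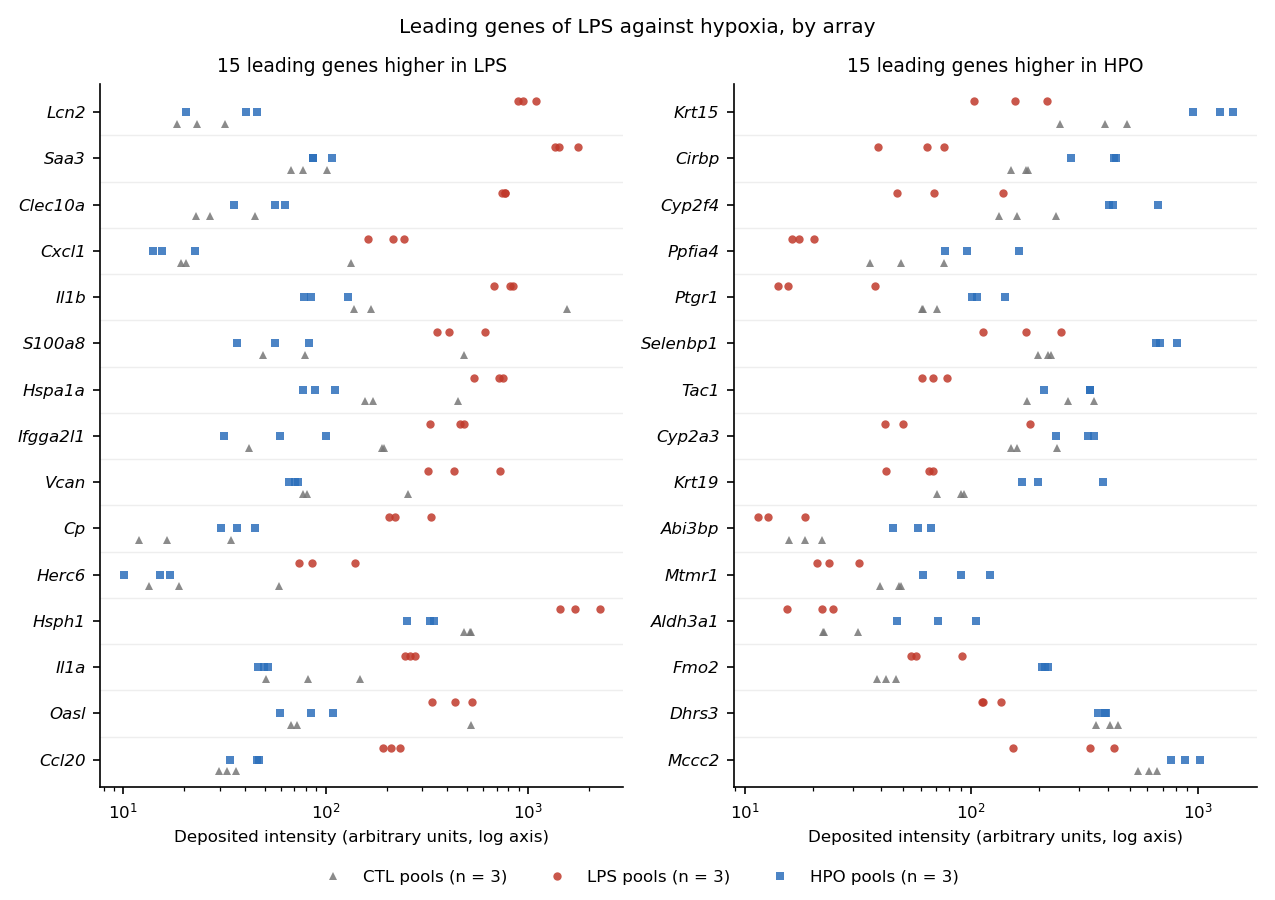
Deposited intensity, on a log axis, of the 15 leading genes higher in LPS (left) and the 15 higher in HPO (right), with 1 point per array for CTL (grey), LPS (red) and HPO (blue), 3 pools each. The LPS and HPO points of every gene shown are separate because the rule that chose them required it, and the place of the CTL points varies, with Lcn2 in CTL near HPO and Abi3bp in CTL near LPS.

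Chemokines and interleukins followed. Cxcl1, which attracts neutrophils, was at 216.0, 244.9 and 162.0 in LPS and 22.6, 15.5 and 14.0 in HPO (3.51, SE 0.56, adjusted p = 0.00453). Ccl20, which attracts dendritic cells and lymphocytes through Ccr6, was at 233.2, 211.3 and 192.7 in LPS and 45.7, 33.8 and 46.6 in HPO (2.32, SE 0.13, adjusted p = 4.85e-06). Ccl9, a chemokine of monocytes, was high in both groups, at 3218.6, 3202.8 and 2989.1 in LPS and 1943.8, 1283.8 and 1541.6 in HPO (1.00, adjusted p = 0.00287). All LPS pools were above all HPO pools for each of these genes, which the rule that chose Cxcl1 and Ccl20 required. Of 30 chemokines tested (31 on the array), these 3 were called, all higher in LPS (10%, against 3.08% over all genes). The list median was 0.41. None was called higher in HPO by limma (2 at an unadjusted p under 0.05). The chemokine count was 6 without CTL 2 and 5 without COMB 2. Cxcl2, a further neutrophil chemokine, was at 305.1, 448.6 and 179.1 in LPS, 52.3, 53.9 and 113.2 in HPO and 61.0, 2015.9 and 118.4 in CTL. Its LPS and HPO pools did not overlap, and the difference of 2.07 was not called (adjusted p = 0.262). Ccl5, a T cell chemokine, lay the other way, at 173.6, 255.3 and 137.2 in LPS and 686.3, 514.5 and 657.2 in HPO, and was not called (-1.75, adjusted p = 0.128). Cxcl2 and Ccl5 were picked after their values were seen. Ccl3, a chemokine of monocytes and T cells, was at 868.3, 824.9 and 694.6 in LPS and 597.0, 349.2 and 519.4 in HPO (0.73, adjusted p = 0.313).

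The stretches of the Cxcl1 and Ccl20 promoters shown here were chosen because they are the only ones among the leading LPS genes with letters of the form bound by NF-kB. The search read the 250 bases before each gene's start in RefSeq (GRCr8), on both strands, and capitals mark the match to the form, which is GGG, any 2 bases and TTTCC. Of the 15 leading LPS genes, 13 had a promoter in the table and 2 of these held the form (15.4%), against 435 of 33469 promoters in all (1.3%) and 0 of 9 among the leading HPO genes. A match is a description of the letters and is neither a shown binding site nor a cause. The Cxcl1 stretch is read on the gene strand, minus, from chr14:17479381-17479438, with matches from base 102 to base 75 before the start.
Cxcl1: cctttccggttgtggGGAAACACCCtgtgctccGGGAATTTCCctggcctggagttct
The Ccl20 stretch is on the plus strand, chr9:91837055-91837094, with a match from base 89 to base 80 before the start.
Ccl20: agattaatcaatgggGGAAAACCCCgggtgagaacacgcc

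Il1b, a fever-inducing cytokine of macrophages, was at 840.8, 819.2 and 681.6 in LPS and 129.2, 77.9 and 85 in HPO (3.02, SE 0.68, adjusted p = 0.0213). Il1a, which acts on the same receptor, was at 260.7, 277.2 and 248.0 in LPS and 49.8, 51.8 and 46.2 in HPO (2.39, SE 0.29, adjusted p = 0.0014). Tnf, a cytokine that activates endothelium and leukocytes, was at 96.1, 109.5 and 92.2 in LPS and 52.0, 29.0 and 45.5 in HPO (1.25, adjusted p = 0.0137), but its other probe set gave 0.29 and was not called. Il16, which attracts Cd4 cells, was the reverse, at 131.2, 134.1 and 166.2 in LPS and 309.4, 337.9 and 285.1 in HPO (-1.11, adjusted p = 0.00924). HPO pools of Il16 lay at the CTL values of 279.1, 267.3 and 311.2. Among 29 cytokine genes tested (31 on the array), the median was 0.10. Limma called 3 higher in LPS (10.3%) and 2 in HPO (6.9%), against 3.08% and 5.2% over all genes. The second in HPO was the alarmin Il33 (-1.04, adjusted p = 0.0326), named after its value was seen. Il6 was below the level filter and was not tested. The call of Il1b was lost without LPS 1 (adjusted p = 0.0772), LPS 2 (0.0622), LPS 3 (0.0637), HPO 2 (0.07) or HPO 3 (0.0716), and that of Tnf without LPS 1 (0.0513). The number of cytokines called fell from 5 to 2 without LPS 1 and to 3 without LPS 3, HPO 2 or HPO 3.

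Among the receptors, Cd14, Tlr2 and Tlr4 were higher in LPS. Cd14, the coreceptor that delivers LPS to Tlr4, was at 1375.2, 1675.2 and 1176.7 in LPS and 553.1, 546.8 and 392.5 in HPO (1.5, SE 0.26, adjusted p = 0.0072). Tlr2, the receptor of bacterial lipoproteins, was at 170.3, 163.7 and 153.1 in LPS and 72.1, 62.8 and 72.9 in HPO (1.22, adjusted p = 0.00289). Tlr4 was at 563.3, 522.8 and 487.2 in LPS and 391.4, 307.9 and 353.2 in HPO (0.58, SE 0.11, adjusted p = 0.0118), and CTL lay between the groups at 412.8, 409.6 and 442.6. Each LPS pool was above each HPO pool for these 3 receptors. Cd180, a Tlr4 relative that restrains LPS signalling, was lower in LPS, at 40.7, 49.9 and 59.7 against 118.8, 94.3 and 85.1 (-0.98, adjusted p = 0.03). All 23 receptors and adaptors on the array were tested, with a median of 0.00. Of these, 3 were higher in LPS (13%) and 2 in HPO (8.7%), against 3.08% and 5.2% over all genes. The second in HPO was Traf6, a ligase that carries the signal of these receptors (-0.39, adjusted p = 0.0452), named after its value was seen. The adaptor Myd88 showed a difference of 0.02 and was not called. Ly96, another member of the list, named after its value was seen, was not called either (-0.14, adjusted p = 0.425). Nor was Lbp, at 38.8, 26.9 and 26.5 in LPS and 19.1, 22.4 and 23.6 in HPO (0.47, adjusted p = 0.306). The call of Tlr4 was lost without LPS 1 (adjusted p = 0.0601), and that of Cd180 without LPS 1 (0.123), LPS 2 (0.0756), HPO 1 (0.092), HPO 2 (0.07) or HPO 3 (0.0519). Calls in this list fell from 5 to 2 without LPS 1 and to 3 without LPS 2, HPO 1 or HPO 3.

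Among NF-kB subunits and feedback inhibitors, Nfkbiz, a nuclear cofactor that NF-kB itself induces, was at 449.7, 518.2 and 305.9 in LPS and 132.1, 107.3 and 147.6 in HPO (1.69, adjusted p = 0.00453), although its other probe set gave 0.05. Zc3h12a, an RNase that degrades cytokine messages, was at 115.5, 107.9 and 81.6 in LPS and 45.5, 47.0 and 53.8 in HPO (1.03, adjusted p = 0.00289). Tnfaip8l2, which restrains immune cells, was lower in LPS, at 494.3, 539.6 and 511.0 against 717.0, 747.4 and 824.8 (-0.56, adjusted p = 0.0202). The classical inhibitor Nfkbia overlapped between the groups, at 1341.7, 1590.5 and 1048.8 in LPS and 887.2, 1126.2 and 1413.4 in HPO (0.22, adjusted p = 0.696). In all, 2 of 20 genes were higher in LPS (10%, against 3.08% over all genes) and 1 was higher in HPO (5%, near the 5.2% over all genes). Tnfaip8l2 lost its call without LPS 1 (adjusted p = 0.0831), LPS 3 (0.0691), HPO 2 (0.0519) or HPO 3 (0.0662).

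Interferon-stimulated genes formed a large block on the LPS side. Of 42 tested (43 on the array), 19 were called, all of them higher in LPS (45.2%, against 3.08% over all genes). A difference above 0 was found in 39. The median was 1.06 against -0.02 over all genes, and in 34 of the 42 every LPS pool was above every HPO pool, against 11.1% over all genes. None was called higher in HPO by limma, and none had an unadjusted p under 0.05 on that side. Oas1a, which makes the activator of RNase L, was at 588.7, 473.3 and 404.9 in LPS and 166.9, 84.6 and 87.0 in HPO (2.16, SE 0.28, adjusted p = 0.00191). Herc6, a ligase that attaches Isg15 to proteins in rodents, was at 139.6, 73.7 and 85.4 in LPS and 17.1, 15.2 and 10.1 in HPO (2.71, adjusted p = 0.00543). Ifi44 was at 161.9, 172.6 and 145.6 in LPS and 63.8, 48.7 and 34.4 in HPO (1.73, adjusted p = 0.00575). HPO 1 had the highest HPO value in these 3 genes and lay below every LPS pool, which the rule that chose Herc6 required. Oasl was at 526.7, 434.5 and 336.8 in LPS and 109.2, 59.5 and 84.4 in HPO (2.36, adjusted p = 0.0359), and its call was lost without any 1 of the 6 LPS and HPO arrays (adjusted p from 0.0546 to 0.125). Several of the best known members were not called: Isg15 was at 996.8, 757.3 and 642.4 in LPS and 323.8, 107.8 and 131.4 in HPO (2.23, adjusted p = 0.186), with CTL at 96.1, 2127.2 and 120.2. Irf7, the regulator of the type I interferon response, was at 1395.0, 1269.7 and 1089.4 in LPS and 492.3, 180.0 and 233.5 in HPO (2.18, adjusted p = 0.0674). Isg15 and Irf7 were picked after their values were seen. The count of calls was 9 without LPS 1, 11 without LPS 2 and 10 without HPO 2. Members of the Oas family are alike in sequence, so signal may be shared between them.

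Genes induced by interferon gamma and those that supply peptides to MHC class I showed the same side. All 26 on the array were tested, and 15 were called higher in LPS (57.7%, against 3.08% over all genes). None was called higher in HPO by limma (0 at an unadjusted p under 0.05), and the median was 0.72. Gbp2, a guanylate-binding protein that attacks the vacuoles of microbes, was at 1195.7, 1237.1 and 1155.3 in LPS and 425.4, 387.4 and 474.2 in HPO (1.48, adjusted p = 0.0124). Irgm, an immunity GTPase, was at 251.2, 264.6 and 202.1 in LPS and 81.0, 79.0 and 91.0 in HPO (1.5, adjusted p = 0.0139). Nlrc5, the transactivator of MHC class I genes, was at 134.1, 139.4 and 89.9 in LPS and 36.4, 49.1 and 32.5 in HPO (1.59, adjusted p = 0.0118). LPS pools were above HPO pools in each of the 3. Irf1, a transcription factor of the interferon gamma response, was at 869.3, 976.7 and 611.7 in LPS and 237.2, 263.5 and 299.2 in HPO (1.59, adjusted p = 0.0406), with CTL 2 at 826.4 within the LPS range. Psmb9, a subunit of the immunoproteasome, was at 1514.1, 1383.8 and 1210.4 in LPS and 668.9, 680.8 and 661.5 in HPO (1.02, adjusted p = 0.00294, picked after its values were seen). The core proteasome list had 1 gene of 30 higher in LPS, Psma5 (0.41, adjusted p = 0.0418), and 1 higher in HPO, Psmd2 (-0.38, adjusted p = 0.0405). Each was 3.33% of that list, against 3.08% and 5.2% over all genes. Of 14 genes of MHC class II presentation, none was called higher in LPS (0 at an unadjusted p under 0.05). The 1 called higher in HPO (7.14%, against 5.2% over all genes) was RT1-DMb (-0.48, adjusted p = 0.0399). The calls of Gbp2 (adjusted p = 0.0512), Irgm (0.0579) and Nlrc5 (0.0561) were lost without LPS 1, and the list then had 6 calls. Irf1 lost its call without CTL 3 or any of the 6 LPS and HPO arrays (0.0511 to 0.127), RT1-DMb without CTL 2, LPS 1, LPS 2, LPS 3, HPO 2 or HPO 3 (0.0533 to 0.149), Psma5 without CTL 3 or any LPS or HPO pool (0.0672 to 0.153) and Psmd2 without any CTL or HPO pool, LPS 1 or LPS 3 (0.0545 to 0.159).

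Ifgga2l1, an interferon-inducible GTPase, was the remaining interferon gene among the 15 leading LPS genes, at 482.6, 462.9 and 326.4 in LPS and 100.9, 59.5 and 31.3 in HPO (2.84, adjusted p = 0.0121). Its promoter held a form of the interferon response element (GAAA, any 2 bases, GAAA), as did 1140 of all promoters (3.41%) and none of the other leading genes matched. Without LPS 1 its adjusted p was 0.0555 and without HPO 3 it was 0.0505.

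Heat shock proteins and their cochaperones were higher in LPS in 20 of 34 genes tested (35 on the array). This was 58.8%, against 3.08% over all genes, with a list median of 0.52. None was called higher in HPO by limma (0 at an unadjusted p under 0.05). Hspa1a, the inducible Hsp70, was at 752.0, 719.5 and 540.6 in LPS and 89.1, 77.7 and 111.1 in HPO (2.84, SE 0.33, adjusted p = 0.000886). CTL lay between, at 156.5, 453.5 and 172.1, above HPO in every pool. Hspa1a has a near-identical neighbour, Hspa1b, and the array may not separate them. Hsph1, the Hsp110 chaperone that exchanges nucleotide on Hsp70, was at 1707.4, 1434.0 and 2263.4 in LPS and 328.3, 251.6 and 341.7 in HPO (2.54, SE 0.16, adjusted p = 8.38e-06). Its CTL values of 480.6, 521.1 and 520.1 were again between the groups, and its second probe set gave 2.93. Stip1, which links Hsp70 to Hsp90, was at 434.6, 394.1 and 464.1 in LPS and 123.4, 115.8 and 169.0 in HPO (1.67, SE 0.13, adjusted p = 4.2e-05). Cacybp, a scaffold protein that binds S100 proteins and the ligase Siah1, was at 1708.7, 1325.1 and 2298.4 in LPS and 679.3, 694.2 and 447.6 in HPO (1.54, adjusted p = 0.00214). The called members reached from the Hsp90 cochaperones Fkbp4 (1.11) and Ahsa1 (0.94) over mitochondrial Hspd1 (0.71) and Hspe1 (0.58) to the chaperonin subunits Tcp1 (0.58), Cct3 (0.52), Cct4 (0.42) and Cct5 (0.39), which were named after their values were seen. The small heat shock proteins Hspb1 (-0.46), Cryab (-0.09) and Hspb8 (-0.08) were not called, nor was the heat shock factor Hsf1 (0.30). The number of calls stayed within 1.5 times of 20 without each array in turn.

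The Hsph1 promoter is shown because it was the only one among the leading genes with a heat shock form (GAA, any 2 bases, TTC, any 2 bases, GAA), searched on both strands in the 250 bases before the start and found in 222 of the 33469 promoters (0.663%). The stretch is on the plus strand of chr12:10427317-10427359 (GRCr8), and capitals mark the match, from base 36 to base 24 before the start.
Hsph1: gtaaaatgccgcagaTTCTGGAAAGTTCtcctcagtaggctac

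Chaperones of the ER behaved likewise. All 25 genes of the unfolded protein response on the array were tested, and 14 were higher in LPS (56%, against 3.08% over all genes). None was called higher in HPO by limma (0 at an unadjusted p under 0.05), and the median was 0.59. Hspa5, the ER Hsp70 known as BiP, was at 2736.2, 2931.2 and 3254.8 in LPS and 842.8, 696.2 and 723.9 in HPO (1.98, SE 0.11, adjusted p = 3.76e-06). Hsp90b1, the ER Hsp90, was at 2558.3, 2786.9 and 2810.6 in LPS and 1106.4, 976.0 and 988.6 in HPO (1.41, SE 0.09, adjusted p = 8.38e-06). Creld2, an ER stress-induced secreted protein, was at 667.7, 695.4 and 797.8 in LPS and 231.5, 183.7 and 245.4 in HPO (1.71, adjusted p = 2.98e-05). Pools of a group differed little in these genes. Pdia4, a disulfide isomerase, was at 530.6, 566.8 and 602.3 in LPS and 209.2, 191.1 and 198.2 in HPO (1.5, adjusted p = 4.03e-05). CTL values of these 4 genes lay below all LPS pools and above all HPO pools, for example 1002.5, 1172.8 and 1082.3 for Hspa5. The transcription factors of the response were not called, with Atf4 at 0.19, Xbp1 at 0.24 and Ddit3, which promotes cell death under ER stress, at 0.59. Atf4, Xbp1 and Ddit3 were picked after their values were seen. The number of calls stayed within 1.5 times of 14 without each array in turn.

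The RNA-binding proteins known to rise in the cold were higher in HPO. Cirbp was at 64.0, 75.5 and 38.8 in LPS and 274.9, 427.8 and 436.2 in HPO (-2.68, SE 0.23, adjusted p = 9.01e-05), and its 3 probe sets, all called, gave -2.68 to -1.60. CTL lay between at 175.0, 149.3 and 178.2. Rbm3 was at 1494.5, 1401.1 and 1565.7 in LPS and 2415.0, 3146.5 and 2194.6 in HPO (-0.78, SE 0.13, adjusted p = 0.00522), with CTL at 1710.6, 1979.0 and 2026.0, again above LPS and below HPO. In each of the 10 genes of the plot of stress genes, CTL lay between LPS and HPO. These genes were named for their LPS minus HPO difference, so only the place of CTL is information here, and it was not borne out by a call of HPO against CTL in any of them (adjusted p from 0.0879 to 0.628). LPS against CTL was not called for Rbm3 (adjusted p = 0.204). Body temperature is not in the labels, and its part in these differences was not tested.

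**Figure D3:**
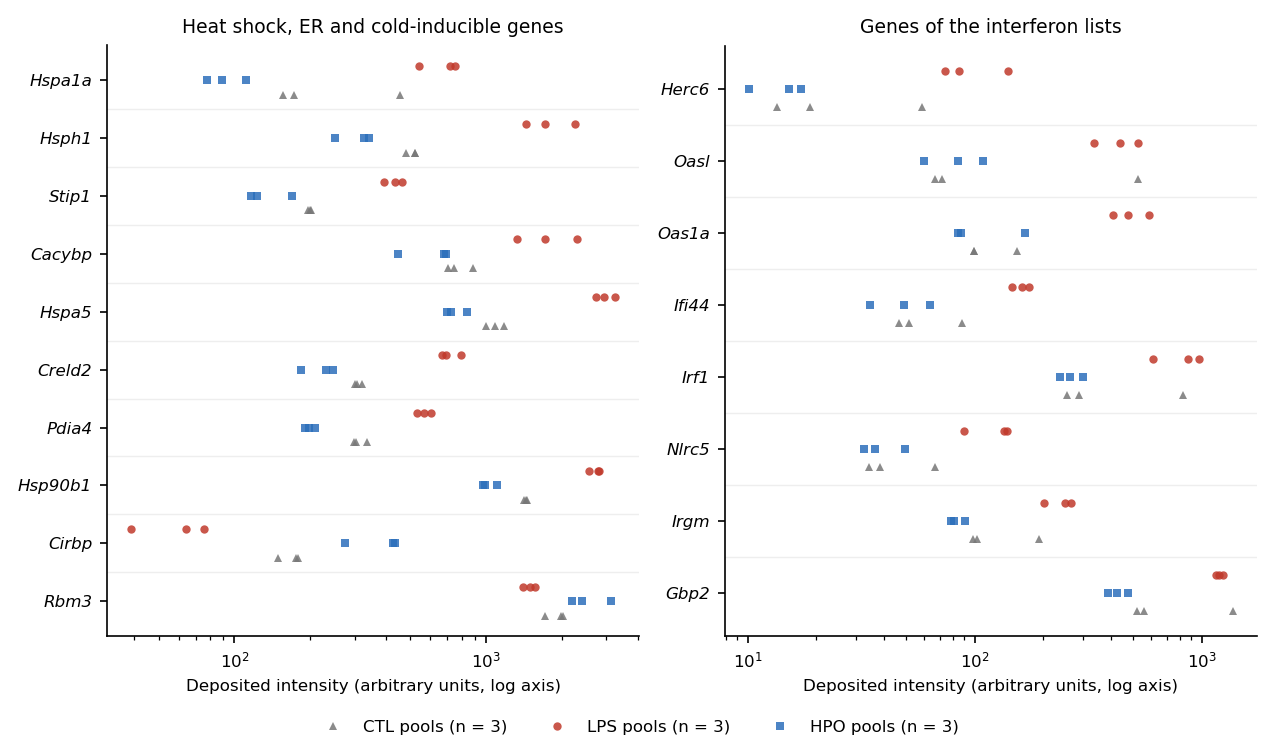
Deposited intensity, on a log axis, of the named heat shock, ER and cold-inducible genes (left) and of the named genes of the interferon lists (right), with 1 point per array for CTL (grey), LPS (red) and HPO (blue), 3 pools each. On the left, CTL points lie between those of LPS and HPO, with Hspa5 in LPS from 2736.2 to 3254.8 and in HPO from 696.2 to 842.8. On the right, 1 CTL pool often lies apart from the other CTL pools, as for Oasl at 524.5.

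Of 49 genes of the HIF pathway tested, 5 were higher in LPS (10.2%) and 6 higher in HPO (12.2%), against 3.08% and 5.2% over all genes. Hif1a itself, the oxygen-regulated subunit, was at 1861.1, 1750.8 and 1737.9 in LPS and 1156.6, 1004.1 and 1038.5 in HPO (0.74, SE 0.15, adjusted p = 0.0118), so its message was higher in the group without hypoxia. CTL 1 and CTL 3, at 1133.3 and 1232.1, lay near HPO, and CTL 2, at 1786.3, within LPS. Edn1, the vasoconstrictor endothelin, was at 59.3, 97.9 and 63.6 in LPS and 30.2, 46.1 and 38.5 in HPO (0.91, adjusted p = 0.014). P4ha1, a collagen prolyl hydroxylase, was at 334.3, 352.2 and 442.8 in LPS and 219.7, 173.7 and 257.2 in HPO (0.80, adjusted p = 0.009). LPS was above HPO in every pool of these genes. Tfrc, the transferrin receptor, with 0.74 (adjusted p = 0.0356), and Hmox1, which degrades heme, with 0.67 (adjusted p = 0.0056) completed the 5 called higher in LPS.

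The 6 HIF pathway genes called higher in HPO, named after their values were seen, were Pfkfb4, Pdk1, Bnip3l, Mxi1, Bnip3 and Ndrg1, with differences from -0.72 to -0.35. Bnip3, a receptor for the removal of mitochondria, was at 227.0, 254.1 and 256.4 in LPS and 337.8, 340.6 and 409.9 in HPO (-0.56, adjusted p = 0.0091). Its CTL values of 302.1, 272.1 and 277.6 lay between. Pdk1, a kinase that inhibits pyruvate dehydrogenase, was at 121.5, 120.6 and 118.2 in LPS and 162.0, 165.1 and 241.6 in HPO (-0.63, adjusted p = 0.0253). Its CTL values of 181.7, 146.8 and 169.4 overlapped with HPO. Pfkfb4, a regulator of glycolysis, was at 116.9, 132.2 and 150.2 in LPS and 204.0, 218.2 and 236.0 in HPO (-0.72, adjusted p = 0.03), with CTL at 246.9, 202.8 and 201.0. The HPO values of Pdk1 and Pfkfb4 were thus not apart from CTL. Among uncalled targets, picked after their values were seen, Vegfa, the vascular growth factor, was at 20.2, 16.2 and 16.7 in LPS and 22.6, 18.6 and 16.3 in HPO, and Slc2a1, the main glucose transporter, was at 613.6, 584.9 and 505.3 in LPS and 498.2, 426.7 and 552.7 in HPO. Both overlapped. Vegfa was below the array medians, where a difference is hard to measure. Over these 49 genes (of 52 on the array), the median was -0.08, and the 11 calls became 4 without LPS 1, 6 without LPS 2, 5 without LPS 3 and 7 without HPO 2 or HPO 3. Hif1a lost its call without LPS 1 (adjusted p = 0.0562), and Tfrc without CTL 1, CTL 3, any LPS pool, HPO 1 or HPO 2 (0.0502 to 0.115).

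Enzymes of glycolysis gave 1 call among 18, higher in LPS (5.56%, against 3.08% over all genes), the lactate transporter Slc16a1 (0.68, adjusted p = 0.0424). The list median was 0.14, with none called higher in HPO by limma (1 at an unadjusted p under 0.05). The call of Slc16a1 was lost without CTL 1, CTL 2, CTL 3, LPS 1, LPS 2, LPS 3, HPO 1 or HPO 2 (adjusted p from 0.0568 to 0.144). Of 55 subunits of the respiratory chain, 1 was called (1.82%, below the 5.2% of all genes higher in HPO), Uqcrc2, a core protein of complex III, at 669.9, 583.6 and 671.3 in LPS and 833.4, 842.8 and 963.2 in HPO (-0.45, adjusted p = 0.0278). The median of the subunits was -0.13, with HPO above LPS in every pool for 23 of the 55 (41.8%, against 20.1% over all genes). None was called higher in LPS by limma (2 at an unadjusted p under 0.05). The call of Uqcrc2 was lost without LPS 1, LPS 2, LPS 3, HPO 2 or HPO 3 (0.0552 to 0.0994).

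Of the 15 leading HPO genes, 6 were in the lists of airway epithelium or of the metabolism of foreign compounds. Krt15, a keratin of basal epithelial cells, was at 155.6, 103.3 and 216.5 in LPS and 955.2, 1252.9 and 1435.4 in HPO (-2.97, SE 0.38, adjusted p = 0.00168). CTL lay between, at 390.7, 246.0 and 486.3. Krt19, a keratin of simple epithelia, was at 65.0, 42.0 and 67.9 in LPS and 197.5, 167.0 and 380.2 in HPO (-2.01, adjusted p = 0.00353). Cyp2f4, a cytochrome P450 of club cells, was at 68.7, 47.1 and 138.7 in LPS and 404.7, 420.5 and 667.2 in HPO (-2.64, SE 0.44, adjusted p = 0.00597). That no LPS pool reached the lowest HPO pool in these genes was required by the rule that chose them. Fmo2, the flavin monooxygenase of lung, was at 56.8, 54.2 and 90.8 in LPS, 218.3, 211.6 and 205.1 in HPO and 38.2, 41.8 and 46.7 in CTL (LPS minus HPO -1.68, SE 0.26, adjusted p = 0.00377), while its other probe sets were not called. Aldh3a1, an aldehyde dehydrogenase, was at 24.5, 15.3 and 21.9 in LPS and 47.0, 71.4 and 104.6 in HPO (-1.76, adjusted p = 0.0272), and Cyp2a3, a nasal and lung P450, at 49.9, 41.6 and 181.3 in LPS and 328.8, 237.0 and 349.3 in HPO (-2.04, adjusted p = 0.0341). Of 40 genes of xenobiotic metabolism tested (41 on the array), 11 were called higher in HPO (27.5%, against 5.2% over all genes). Limma called none higher in LPS (1 at an unadjusted p under 0.05), and the median was -0.29. Only Fmo2 among the named genes was also called in HPO against CTL (2.30, adjusted p = 0.0289), a call lost without CTL 1 (0.114), CTL 2 (0.0734), CTL 3 (0.0691), HPO 2 (0.183) or HPO 3 (0.062). The 11 calls of the list became 7 without CTL 3, LPS 3 or HPO 2, 6 without LPS 2 or HPO 3 and 5 without LPS 1. Aldh3a1 lost its call without any LPS pool, HPO 2 or HPO 3 (0.0668 to 0.106), and Cyp2a3 without CTL 3, LPS 1, LPS 2 or any HPO pool (0.0511 to 0.132).

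Other leading HPO genes had varied functions. Ptgr1, which inactivates leukotriene B4 and reactive aldehydes, was at 14.0, 15.5 and 37.7 in LPS and 106.3, 101.2 and 141.3 in HPO (-2.45, adjusted p = 0.00282). Selenbp1, a selenium-binding protein that oxidises methanethiol, was at 174.8, 112.1 and 249.7 in LPS and 657.6, 679.2 and 812.0 in HPO (-2.06, adjusted p = 0.00253), and its CTL values of 224.5, 197.6 and 218.4 lay within LPS. Dhrs3, which turns retinal back into retinol, was at 112.2, 111.0 and 135.8 in LPS and 391.7, 363.7 and 387.7 in HPO (-1.67, adjusted p = 0.00466), with CTL at the HPO level, 445.3, 356.8 and 410.7. Tac1, the precursor of substance P, was at 78.1, 60.8 and 67.8 in LPS and 334.1, 209.3 and 335.5 in HPO (-2.05, adjusted p = 0.0012), and CTL at 348.5, 175.9 and 266.1 overlapped with HPO. So for Dhrs3 and Tac1 the LPS pools were the ones apart from CTL, and for Selenbp1 the HPO pools were. Ppfia4, a liprin, was at 20.2, 16.1 and 17.4 in LPS and 76.8, 95.7 and 161.9 in HPO (-2.51, adjusted p = 0.00234). Mtmr1, a phosphoinositide phosphatase, was at 23.6, 31.8 and 20.9 in LPS and 61.0, 89.8 and 120.7 in HPO (-1.76, adjusted p = 0.00208), but its 4 probe sets ranged from -1.76 to 0.09. Abi3bp, a matrix protein, and Mccc2, an enzyme of leucine breakdown, gave -1.93 (adjusted p = 0.0246) and -1.65 (adjusted p = 0.0202). Abi3bp lost its call without LPS 1, LPS 2, LPS 3, HPO 2 or HPO 3 (0.0562 to 0.0852), and Mccc2 without LPS 1 (0.0702) or HPO 2 (0.0695).

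The promoters of Ppfia4 and Tac1 are shown because they were the only leading HPO genes whose 250 bases before the start held ACGTG, the core of the element that HIF binds, on either strand. These were 2 of 9 HPO genes with a promoter in the table (22.2%), beside 1 of 13 leading LPS genes (7.69%) and 5547 of 33469 promoters in all (16.6%), so the letters are common. In both, CACGTG reads the same on the 2 strands and is marked in capitals. The Ppfia4 stretch is read on the minus strand from chr13:48354414-48354449, with the match from base 155 to base 150 before the start.
Ppfia4: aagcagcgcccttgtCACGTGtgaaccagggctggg
The Tac1 stretch is on the plus strand, chr4:36645496-36645531, with the match from base 72 to base 67 before the start.
Tac1: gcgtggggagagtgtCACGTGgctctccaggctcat

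Handling of lipids is a main task of alveolar macrophages. Star, which carries cholesterol into mitochondria, was at 112.4, 108.2 and 85.4 in LPS and 337.7, 232.5 and 304.9 in HPO (-1.50, adjusted p = 0.0157). Scd2, a fatty acid desaturase, was at 395.7, 572.5 and 407.5 in LPS and 1392.3, 1422.1 and 788.4 in HPO (-1.36, adjusted p = 0.0103), with 2 of its 4 probe sets called and differences from -1.36 to -0.15. Abca1, the exporter of cholesterol, was at 1024.4, 1051.3 and 583.9 in LPS and 1700.5, 1777.4 and 1982.8 in HPO (-1.08, adjusted p = 0.014). CTL overlapped with HPO in these 3 genes, for Star at 404.8, 292.6 and 375.3. Acaca, the first enzyme of fatty acid synthesis, was at 257.4, 285.1 and 206.3 in LPS and 394.2, 370.2 and 392.8 in HPO (-0.64, adjusted p = 0.012), but its other probe set gave 0.20 and was not called. Of 37 such genes tested (38 on the array), 6 were called higher in HPO (16.2%, against 5.2% over all genes) and none higher in LPS by limma (2 at an unadjusted p under 0.05), but the median was 0.00. Calls fell to 2 without LPS 1 and to 3 without LPS 3 or HPO 3. Star lost its call without LPS 1 (0.0502), LPS 3 (0.0672) or HPO 3 (0.0538), Scd2 without LPS 1 (0.0519) and Abca1 without HPO 3 (0.0516). Of 20 genes of cholesterol synthesis, 3 were called higher in HPO (15%, against 5.2% over all genes). They were the regulator Srebf1 (-0.64, adjusted p = 0.0194, with its other probe set at -0.35 and not called) and the enzymes Msmo1 (-0.63, adjusted p = 0.0362) and Sc5d (-0.59, adjusted p = 0.0331). The median was -0.34, and none was called higher in LPS by limma (1 at an unadjusted p under 0.05, against 12 on the HPO side). Every HPO pool was above every LPS pool for 12 of the 20 (60%, against 20.1% over all genes). The reverse held for 1 (5%, against 11.1% over all genes). The number of calls was 0 without LPS 1 or HPO 3, 1 without CTL 3, LPS 2, LPS 3 or HPO 2, 5 without COMB 1 and 6 without COMB 2 or COMB 3, and 1 with quantile normalization or centred arrays.

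Enzymes against reactive oxygen were split. Sod2, the mitochondrial superoxide dismutase, was at 3956.2, 4072.9 and 3832.4 in LPS and 1485.5, 1191.7 and 1236.3 in HPO (1.61, SE 0.11, adjusted p = 1.25e-05), with CTL at 1665.1, 1768.3 and 1509.2. Gpx2, a glutathione peroxidase of epithelia, was at 1613.6, 1280.1 and 1303.9 in LPS and 419.3, 386.0 and 553.8 in HPO (1.63, SE 0.24, adjusted p = 0.00325). Hmox1 was at 1677.0, 1485.2 and 1517.4 in LPS and 1021.8, 1088.3 and 843.2 in HPO (0.67, adjusted p = 0.0056), and here CTL, at 1420.0, 1682.0 and 1572.9, lay with LPS. The remaining genes of the list were mostly near 0. The median of the 27 genes of the glutathione and NRF2 list was -0.04. Limma called 3 higher in LPS (11.1%) and 2 higher in HPO (7.41%), against 3.08% and 5.2% over all genes. Higher in HPO were the peroxidases Gpx1 (-0.36, adjusted p = 0.0235, named after its value was seen) and Gpx4, which repairs lipid peroxides (-0.47, adjusted p = 0.0492), whose other probe set gave 0.05. Gpx4 lost its call without any 1 of 11 arrays (adjusted p from 0.052 to 0.181), all but COMB 1, and the list had 3 calls without LPS 1, LPS 3, HPO 1 or HPO 2.

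Iron and zinc genes gave 3 calls higher in LPS (17.6%) and 1 higher in HPO (5.88%) among 17 tested, against 3.08% and 5.2% over all genes. Slc40a1, the iron exporter ferroportin, was at 32.0, 53.3 and 39.2 in LPS and 77.0, 80.2 and 146.0 in HPO (-1.23, adjusted p = 0.0194), with CTL at 85.1, 120.9 and 72.6. Slc39a14, an importer of zinc and iron, was at 109.7, 158.6 and 115.4 in LPS and 78.7, 86.7 and 72.4 in HPO (0.67, adjusted p = 0.0261), but its other probe set gave 0.14 and was not called. The importers Slc11a2 (0.43, adjusted p = 0.243) and Slc39a8 (-0.02, adjusted p = 0.972), looked at after the other values were seen, were not called. Slc40a1 lost its call without LPS 1 (0.0856), LPS 3 (0.0694) or HPO 3 (0.0613), and Slc39a14 without LPS 2 (0.0853), LPS 3 (0.0552), HPO 1 (0.0613) or HPO 3 (0.0878). The zinc importer Slc39a1 gave 0.40 (adjusted p = 0.0425) and lost its call without each CTL pool, LPS 1, LPS 2 or any HPO pool (0.059 to 0.164). The 4 calls of the list fell to 1 without any LPS pool, HPO 1 or HPO 3 and to 2 without CTL 1, CTL 3 or HPO 2.

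**Figure D4:**
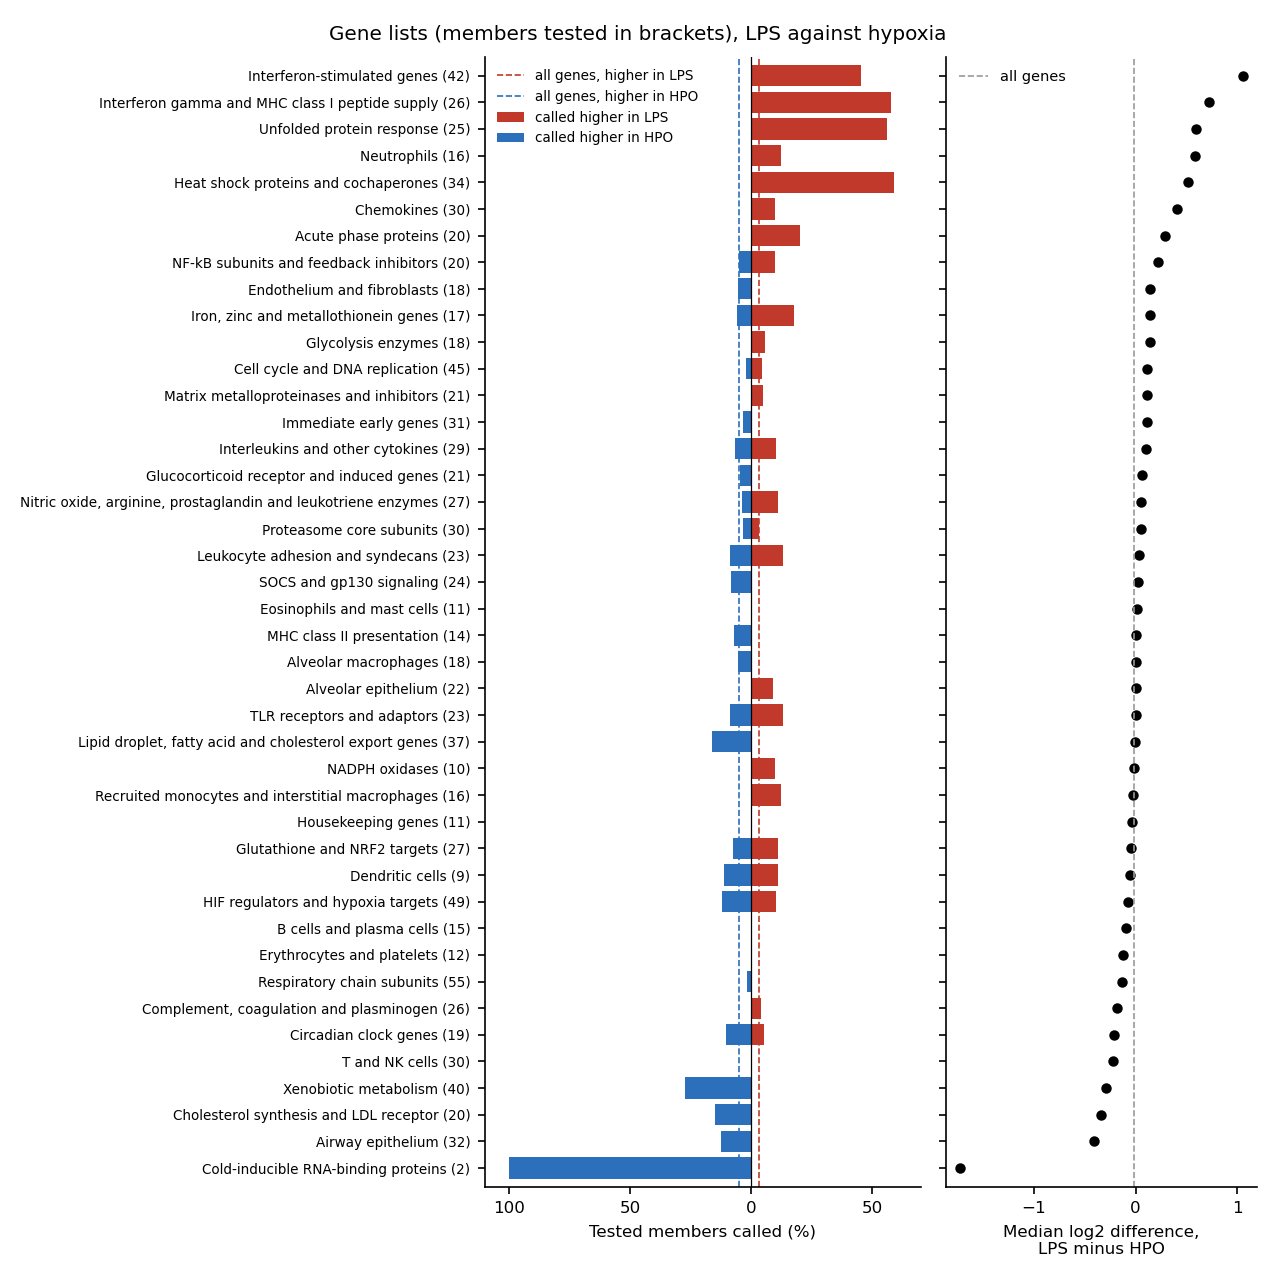
Left, percentage of tested members of each of the 42 gene lists called higher in LPS (red, to the right) or in HPO (blue, to the left), with dashed lines at the percentages over all genes, 3.08% and 5.2%. Right, median log2 difference LPS minus HPO of each list, with the dashed line at the median over all genes, -0.02. By percentage called, the interferon, heat shock and unfolded protein response lists reach farthest to the LPS side, and the cold-inducible list, with 2 members, and xenobiotic metabolism farthest to the HPO side. By median, the interferon lists and the unfolded protein response lie highest and the cold-inducible list and airway epithelium (-0.41) lowest.

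The lavage cells were checked against marker genes, since a pool is a mixture and in such bulk samples fewer cells of a type and less RNA per cell cannot be told apart. Alveolar macrophage markers were high in every array and their summed intensity over 18 genes did not separate the groups, at 50408, 52392 and 49668 in LPS and 50557, 51066 and 48984 in HPO. Of these 18, 1 was called, Pparg, the transcription factor of alveolar macrophage identity (-0.47, adjusted p = 0.039), a call lost without CTL 3 or any LPS or HPO pool (0.0607 to 0.15). Lgals3 and Cd68, common macrophage proteins, differed by 0.00 and -0.04. Lavage cells rich in alveolar macrophages were thus present in both groups.

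Of 16 neutrophil markers tested, 2 were called, both higher in LPS (12.5%, against 3.08% over all genes). Their sum over 16 genes was 8109, 7649 and 9130 in LPS and 4548, 3449 and 4097 in HPO, and 3950, 8900 and 3799 in CTL. The whole excess lay in 4 genes picked after their values were seen, Slfn4, Lcn2, S100a9 and S100a8, which summed to 4927, 4739 and 5726 in LPS and 1191, 510 and 718 in HPO. The sums of the other 12 markers overlapped, at 3182, 2910 and 3404 in LPS and 3358, 2938 and 3379 in HPO. Taken singly, LPS was above HPO in every pool for 8 of the 16 markers (50%, against 11.1% over all genes). HPO was above LPS for 0 of the 16, and the median difference was 0.58. S100a8, a calcium-binding protein abundant in neutrophils, was at 407.6, 355.1 and 613.6 in LPS and 56.4, 36.5 and 82.6 in HPO (2.99, SE 0.66, adjusted p = 0.0196). Its partner S100a9 was at 513.0, 575.9 and 1098.5 in LPS and 97.0, 31.5 and 75.9 in HPO, with CTL at 20.6, 2010.8 and 60.2, and was not called (3.46, adjusted p = 0.118). Apart from S100a8 and Lcn2, which is also an acute phase protein, no marker in the list was called. Over the whole list, these genes included, 4 had an unadjusted p under 0.05 on the LPS side and 1 on the HPO side. Slfn4, which also stands in the interferon list, was at 2915.1, 2862.5 and 3125.9 in LPS and 1016.7, 401.8 and 513.3 in HPO (2.32, adjusted p = 0.0652). The granule genes Camp and Mmp8 gave -0.41 and 0.16, and the receptors Csf3r and Cxcr2 gave 0.98 each. S100a9, Slfn4 and these 4 were named after their values were seen. The part of neutrophils in the cytokine, acute phase and interferon results was not tested. S100a8 lost its call without LPS 1 (adjusted p = 0.0652), LPS 3 (0.08) or HPO 2 (0.0718).

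Markers of other leukocytes gave few calls. Vcan, a proteoglycan of monocytes, was at 432.0, 728.0 and 318.9 in LPS and 66.2, 70.2 and 72.7 in HPO (2.72, adjusted p = 0.0115), and 4 of its 5 probe sets were called. Itgam, an integrin of myeloid cells, was at 45.2, 110.0 and 54.6 in LPS and 21.1, 23.8 and 24.5 in HPO (1.45, adjusted p = 0.0449). LPS 2 was the highest pool in both. The summed monocyte markers nevertheless overlapped, at 8016, 10910 and 7282 in LPS and 9257, 8855 and 7547 in HPO. Of the 16 markers, 4 had every LPS pool above every HPO pool and 4 the reverse (25% each, against 11.1% and 20.1% over all genes). Clec10a, a lectin of macrophages and dendritic cells that binds galactose, was at 745.8, 768.5 and 771.4 in LPS and 35.2, 63.1 and 55.9 in HPO (3.91, SE 0.46, adjusted p = 0.00109), with CTL at 22.8, 45.0 and 26.8. Cd1d1, which presents lipids to NKT cells, was the reverse, at 155.9, 152.7 and 121.7 in LPS and 275.6, 292.2 and 371.8 in HPO (-1.12, adjusted p = 0.00314). These were the only dendritic cell markers called among 9. Every LPS pool was above every HPO pool for 1 of the 9, and the reverse held for 4 (44.4%, against 20.1% over all genes). The 9 summed to 3342, 3402 and 3474 in LPS and 3202, 2676 and 2870 in HPO. This sum includes Clec10a, a leading gene whose rule required LPS pools above HPO pools. The direction of the sum is therefore not independent of that choice and shows nothing beyond Clec10a. T and NK cell markers summed to 1713, 2793 and 1774 in LPS and 3054, 2769 and 2625 in HPO, and limma called none of the 30 (0 and 1 at an unadjusted p under 0.05 on the LPS and HPO sides). None was called among 15 B cell markers (0 at an unadjusted p under 0.05), 11 of eosinophils and mast cells (1) and 12 of erythrocytes and platelets (0). Itgam lost its call without CTL 1, CTL 3, COMB 3 or any LPS or HPO pool (0.0535 to 0.147).

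Several leading HPO genes are epithelial markers. Summed over 32 genes, airway epithelial markers were at 21955, 19571 and 22649 in LPS and 24517, 24301 and 24214 in HPO, both above CTL at 13434, 13159 and 9825. Every HPO sum was above every LPS sum. The sum includes Krt15, Cyp2f4 and Krt19, leading HPO genes whose rule required HPO pools above LPS pools. The order of the sums is therefore not independent of that choice and shows nothing beyond these genes. Of the 32 tested (33 on the array), 4 were called, all higher in HPO (12.5%, against 5.2% over all genes), namely Krt15, Cyp2f4, Krt19 and Krt5 (-1.31, adjusted p = 0.0389). The median was -0.41, and HPO was above LPS in every pool for 13 (40.6%, against 20.1% over all genes). None was called higher in LPS by limma (1 at an unadjusted p under 0.05, against 11 on the HPO side). Of the 32 differences, 10 were above 0. Other defining markers, picked after their values were seen, were not called. Scgb1a1, the main secretion of club cells, differed by 0.08, Bpifa1, a secreted airway protein, by 0.04, and Foxj1, the regulator of cilia, by 0.01. The called markers were thus 3 keratins and 1 P450, and the part of epithelial cell number in the results on xenobiotic genes was not tested. Krt5 lost its call without CTL 1, CTL 3 or any LPS or HPO pool (0.0531 to 0.117), and the list had 8 calls without COMB 1. Alveolar epithelial markers gave 2 calls higher in LPS among 22 (9.09%, against 3.08% over all genes). These were Lamp3 (1.39, adjusted p = 0.0406) and Slc34a2 (0.81, adjusted p = 0.041), at intensities near the low end in HPO, where Lamp3 was at 8.3, 8.6 and 7.7. Lamp3 lost its call without CTL 2, LPS 1, LPS 2 or any HPO pool (0.0526 to 0.13), and Slc34a2 without CTL 3 or any LPS or HPO pool (0.0558 to 0.143). Of 18 endothelial and fibroblast markers, Pecam1, an adhesion molecule of endothelium, was called (-0.43, adjusted p = 0.0223), and lost its call without any LPS pool, HPO 2 or HPO 3 (0.0536 to 0.0784). Housekeeping genes gave no call by limma among 11 (1 on each side at an unadjusted p under 0.05), with a median of -0.04.

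**Figure D5:**
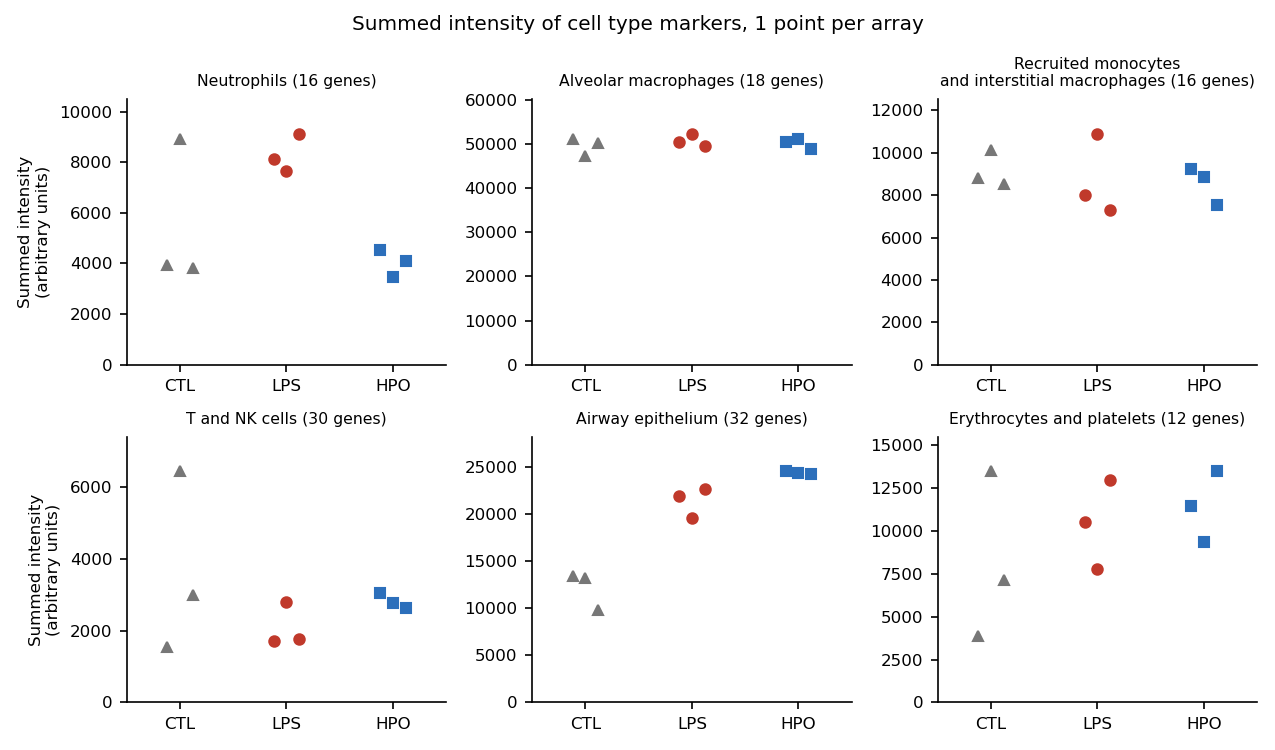
Summed deposited intensity of the markers of 6 cell types, 1 point per array, for CTL (grey), LPS (red) and HPO (blue), 3 pools each, on axes that start at 0. Neutrophil sums are higher in LPS (7649 to 9130) than in HPO (3449 to 4548). This excess of the sum is carried by Slfn4, Lcn2, S100a9 and S100a8, since the sums of the other 12 markers overlap (2910 to 3404 in LPS, 2938 to 3379 in HPO). Alveolar macrophage sums overlap. Airway epithelial sums are above CTL in both groups and higher in HPO than in LPS. They include Krt15, Cyp2f4 and Krt19, which were chosen for HPO pools above LPS pools, so this order is not independent of that choice.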

How the data were processed

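RNA of BALF cells was hybridised to Affymetrix Rat Genome 230 2.0 arrays. The authors deposited a linear intensity for every probe set of each array. Their methods name the software and the 20th percentile filter, and no normalization is stated. All 31099 probe sets are listed. The 57 controls were left out. Groups came from the labels. log2(intensity + 1) was fitted with limma 3.58.1 (R 4.3.3), 4 group means on 12 arrays (8 residual degrees of freedom, 3.94 from the prior), and the contrast LPS minus HPO was adjusted by Benjamini-Hochberg over 25692 probe sets. Of all probe sets, 20832 name 1 gene, 436 several and 9831 none, by the platform annotation with symbols updated through Entrez IDs for 20764. Tables and figures were made with python 3.11.15, pandas 2.3.3 and matplotlib 3.10.9.

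The named genes were the 15 highest and 15 lowest differences among called genes of at least 2-fold with no overlap, up to 4 called genes of each of 42 lists with the largest difference, and the genes the study names. Genes, lists and rule were chosen with earlier results of these data known. In the lists, 165 names had no probe set of their own and were not analysed here, Actb among the genes the study names included. An unpaired t-test, other scalings, filters, pseudocounts and fits, a replicate block and the omission of each array were alternatives. The 2-fold criterion follows the authors' fold threshold.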

Additional observations from a re-analysis of the deposited data

How the results depend on the processing

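Of 104 named genes that were called, 53 kept their call without any 1 array and in every limma alternative, among them 11 of the 15 leading LPS genes and 11 of the 15 leading HPO genes, and no difference changed sign. The 1848 called probe sets became 5764 with array weights, which gave HPO 1 a weight of 6.38 and HPO 3 one of 0.226, and 1188 with 1 probe set per gene. Asking also for a 2-fold difference left 251, and without each array in turn the count ran from 608 to 2274. Quantile normalization gave 2299 and the 6 LPS and HPO arrays alone 1718. An unpaired t-test on the LPS and HPO arrays called 4481 at an unadjusted p under 0.05 and 0 after adjustment, where limma called 5308 and 1848. The methods name a paired t-test for the arrays, which was not run. The 345 probe sets at least 2-fold apart became 218 with 1 probe set per gene and ran from 322 to 452 without each array. The 154 genes called in the pathway lists became 292 with array weights and 68 with a 2-fold difference, and ran from 79 to 179 without each array. Whether shared rat numbers pair LPS with HPO pools is not given by the labels: deviations from the group means correlated between -0.209 and 0.17 over the pairs of pools, highest for LPS 3 with HPO 1, which share the rat numbers 8 and 9. With a replicate block on the 6 arrays, 1670 probe sets were called with LPS 1 paired to HPO 2 and 2040 with LPS 1 paired to HPO 3. In 1 or both of these fits the calls of Tlr4 (adjusted p = 0.0516), Uqcrc2, Pecam1, Pparg, Psma5, Psmd2, Gpx4, Slc39a1, Slc39a14, Slc7a1, Slc16a1, Tyk2 and RT1-DMb were lost (adjusted p from 0.0501 to 0.111). LPS held 44.6% of the calls with quantile normalization and 43.1% with array weights, against 36%. Depth is not defined for arrays, and genes near the low end give compressed differences.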

Other observations

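Further lists gave few calls, to be read beside the 3.08% and 5.2% of all genes called higher in LPS and in HPO. Among 45 genes of the cell cycle and DNA replication, Ccnd1, cyclin D1, was at 1718.1, 1466.1 and 1783.1 in LPS and 888.3, 586.0 and 586.0 in HPO (1.29, adjusted p = 0.0102), and Ccnd2, cyclin D2, at 1322.3, 1331.1 and 1258.0 in LPS and 806.9, 697.3 and 750.1 in HPO (0.80, adjusted p = 0.00274). Both are cyclins of the G1 phase, and the mitotic kinase Aurka was the reverse (-0.50, adjusted p = 0.0128), a call lost without LPS 1 (0.0578) or LPS 3 (0.0552). The median of the list was 0.11. Of 19 circadian clock genes, the repressor Cry1 was higher in LPS, at 182.8, 207.7 and 199.7 against 114.6, 92.6 and 131.3 (0.81, adjusted p = 0.00341). Dbp, an output gene of the clock (-0.78, adjusted p = 0.0101), and Nr1d2, a repressor within it (-0.74, adjusted p = 0.0157), were higher in HPO. The calls made up 5.26% of the list on the LPS side and 10.5% on the HPO side. The hour of lavage is not in the labels, and its part in these values was not tested. Dbp lost its call without LPS 1 (0.0514), and Nr1d2 without LPS 1 (0.0731) or LPS 3 (0.0546), and the list then had 1 call without LPS 1 and 6 without COMB 1.

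Among adhesion genes, Icam1, the endothelial and leukocyte ligand of integrins, was at 931.5, 828.1 and 667.6 in LPS and 373.8, 311.7 and 351.8 in HPO (1.21, adjusted p = 0.0049), and the junction protein F11r at 1037.8, 958.4 and 984.6 in LPS and 1691.1, 1617.8 and 1854.3 in HPO (-0.79, adjusted p = 0.00315). Also called in this list of 23 were Sdc3, a syndecan (0.77, adjusted p = 0.0131, with 1 of its 3 probe sets called and the lowest at -0.02), Itgam and Pecam1. Sdc3 lost its call without LPS 2 (0.0508), and the list fell from 5 calls to 3 without any LPS pool, HPO 2 or HPO 3. Timp1, an inhibitor of matrix proteases, was at 531.4, 594.3 and 612.1 in LPS and 162.9, 149.6 and 249.1 in HPO (1.66, adjusted p = 0.00453) and was the only call among 21 matrix protease genes. Ltc4s, which makes leukotriene C4, was higher in HPO, at 352.5, 486.2 and 441.5 against 176.3, 153.0 and 219.7 in LPS (-1.22, adjusted p = 0.00315). Noxo1, an activator of an NADPH oxidase, was higher in LPS at 108.4, 53.7 and 53.1 against 23.8, 23.9 and 23.6 (1.47, adjusted p = 0.0101). Gadd45a, a growth arrest gene, was the only call among 31 immediate early genes, at 842.8, 816.6 and 802.2 in LPS and 1360.0, 1135.4 and 1562.1 in HPO (-0.71, adjusted p = 0.00596). The 2 kinases called in the list of cytokine signalling by gp130, Jak2 (-0.79, adjusted p = 0.0186) and Tyk2 (-0.51, adjusted p = 0.0389), were higher in HPO. Jak2 lost its call without LPS 3 (0.0609) or HPO 3 (0.0654), and Tyk2 without any CTL, LPS or HPO pool (0.0505 to 0.158). In the list of nitric oxide and arginine genes, Gch1, which makes the cofactor of nitric oxide synthases (0.84, adjusted p = 0.019, with its other probe set at 0.39 and not called), and the arginine transporters Slc7a1 (0.62, adjusted p = 0.0226) and Slc7a2 (0.50, adjusted p = 0.0171) were higher in LPS. These 3 calls were lost without LPS 1, LPS 2 or HPO 2 (0.0534 to 0.094). Procr, the protein C receptor, was the only call among 26 complement and coagulation genes (1.31, adjusted p = 0.0284), lost without LPS 1, LPS 2, HPO 1 or HPO 2 (0.0779 to 0.109). Klf9, a glucocorticoid-induced factor, was the only call among 21 genes of its list (-0.62, adjusted p = 0.0286, while its other probe set gave 0.08), lost without any LPS pool, HPO 2 or HPO 3 (0.0507 to 0.117).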
